A study of Mus musculus with 21 samples.

Results

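The 3 days over which wild type mouse embryoid bodies formed germ layer precursors, day 3 to day 6, were described gene by gene. Every gene whose FPKM averaged 1 or more across the 4 wild type libraries of these days was taken, which gave 12315 of the 24458 genes in the table. FPKM divides the reads of a transcript by its length and by the library's mapped reads, so levels of different genes are compared per unit of length. Of the 12315 genes, 11668 had a mean of at least 1 on both days. Another 437 passed the minimum on their day 6 level and 210 on their day 3 level, so these genes tended to differ by the way they were selected. Tek, Cyp7b1 and 2510009E07Rik lay just above the minimum with means of 1.002, 1.004 and 1.004 FPKM, and Pcsk2 and Dyx1c1 just below it with 0.9999 and 0.9971 FPKM.

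The 2 day 6 libraries and the 2 day 3 libraries came from wild type embryonic stem cell lines of a mixed 129/C57BL/6 background at passages 15 to 18. Embryoid bodies, aggregates in which stem cells differentiate, were made by hanging drop. Per the series' design text, the replicates of a genotype were 2 independent lines. The p-values rest on the spread between the 2 replicates of each genotype and day in 1 culture series, pooled over all 12 embryoid body libraries. Wild type day 0 libraries and the libraries of lines lacking Cxxc5 (also named Rinf), 2 for each day, were used for the spread and for comparison. All groups share the strain background and the culture, and the labels name the alleles only as wild type and knockout. The values are RNA levels in whole aggregates, in which fewer cells of a type and less RNA per cell cannot be told apart.

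In the mouse embryo, epiblast cells leave the pluripotent state at gastrulation. Some move through the primitive streak, lose epithelial contacts and become mesoderm or endoderm, and those that stay anterior become neural and surface ectoderm. Nodal, Wnt, BMP and FGF signals set this choice, and each signal switches on its own secreted inhibitors. Stem cells also change their energy supply during this exit, and glycolytic enzymes are shared targets of growth signals and of the hypoxia inducible factor HIF.

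The upstream sequences below belong to genes that rose at day 6, and were chosen from such genes because they hold 1 of 2 short motifs. Other genes that rose have neither, such as the HIF target Vegfa and the streak genes Lhx1 and Eomes, with 0 matches each, and their sequences are not shown. They are the 250 bases before the most upstream start of each gene in RefSeq (build GRCm38.p6, the assembly known as mm10 that the submitters name), read 5′ to 3′ on the strand of the gene. Capitals mark ACGTG or its reverse complement, a core bound by HIF, in Ldha (chr7:46845554-46845803, plus strand), Pgk1 (chrX:106186850-106187099, plus strand), Bnip3 (chr7:138909507-138909756, minus strand) and Ankrd37 (chr8:45999851-46000100, minus strand). In T (chr17:8434173-8434422, plus strand) and Sp5 (chr2:70474673-70474922, plus strand) they mark CTTTGA or its reverse complement, a core bound by the Wnt effectors TCF and LEF.
Ldha: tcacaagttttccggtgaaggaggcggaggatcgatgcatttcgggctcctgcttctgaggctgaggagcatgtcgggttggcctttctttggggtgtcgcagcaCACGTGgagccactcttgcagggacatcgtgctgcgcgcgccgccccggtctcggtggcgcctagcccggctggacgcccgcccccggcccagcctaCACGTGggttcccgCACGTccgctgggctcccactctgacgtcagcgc
Pgk1: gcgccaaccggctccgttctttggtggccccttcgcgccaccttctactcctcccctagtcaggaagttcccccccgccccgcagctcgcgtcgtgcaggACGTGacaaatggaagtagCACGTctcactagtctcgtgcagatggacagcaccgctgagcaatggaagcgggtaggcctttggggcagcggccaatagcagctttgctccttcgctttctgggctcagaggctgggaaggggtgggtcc
Bnip3: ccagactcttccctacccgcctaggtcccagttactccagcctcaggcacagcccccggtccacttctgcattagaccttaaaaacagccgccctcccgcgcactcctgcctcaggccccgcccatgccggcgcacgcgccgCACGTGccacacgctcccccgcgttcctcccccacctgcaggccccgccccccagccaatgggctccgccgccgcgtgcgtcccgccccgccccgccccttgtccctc
Ankrd37: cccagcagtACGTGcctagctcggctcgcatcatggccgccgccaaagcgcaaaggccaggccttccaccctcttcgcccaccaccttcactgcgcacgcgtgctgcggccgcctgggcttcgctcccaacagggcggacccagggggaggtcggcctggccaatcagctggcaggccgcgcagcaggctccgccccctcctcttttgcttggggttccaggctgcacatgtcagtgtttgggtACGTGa
T: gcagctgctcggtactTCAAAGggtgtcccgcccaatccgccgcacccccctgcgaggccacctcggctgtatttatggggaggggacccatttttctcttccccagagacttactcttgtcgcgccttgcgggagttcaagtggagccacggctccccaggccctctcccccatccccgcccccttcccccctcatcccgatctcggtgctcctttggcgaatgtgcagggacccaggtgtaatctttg
Sp5: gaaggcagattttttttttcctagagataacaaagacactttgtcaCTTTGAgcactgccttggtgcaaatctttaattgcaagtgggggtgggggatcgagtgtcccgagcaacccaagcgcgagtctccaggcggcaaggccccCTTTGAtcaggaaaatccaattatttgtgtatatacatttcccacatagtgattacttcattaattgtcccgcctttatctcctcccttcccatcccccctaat

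The ACGTG core occurred on either strand in 10 of the 21 glycolysis and hypoxia genes that had such a sequence (47.6%), and in 2170 of 9690 tested genes (22.4%). The palindrome CACGTG, seen in Ldha and Bnip3, holds the core on both strands. Both sets had a median of 16 CpG dinucleotides in the window. Among all genes that rose the ACGTG core was in 21.9%, among those that fell 24.2%, and among primitive streak genes 0 of 11 had it. The CTTTGA core occurred in 3 of 11 primitive streak genes (27.3%), in 3 of 8 Wnt feedback and target genes (37.5%) and in 1014 of the 9690 tested genes (10.5%). Among all genes that rose CTTTGA was in 8.99%. The windows of the streak genes had a median of 14 CpG and those of the Wnt genes 8.5, so these sets differ from all genes in base composition. T and Sp5 are in both of these lists. A match describes letters only, and no binding was measured at day 3 or day 6.

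Estimated depth was 25.5 and 26.9 M reads in the day 6 libraries, against 30.1 and 14.9 M reads in the day 3 libraries, so that 1 FPKM in a transcript of 2 kb rested on 29.7 to 60.3 reads. Replicates correlated at 0.963 at day 6 and at 0.977 at day 3 (Pearson's r of log2(FPKM + 1) across genes, which are not independent). Cxxc5 itself had 39.8 and 52.2 FPKM in wild type at day 6, against 30.9 and 36.1 FPKM at day 3, and 5.05 to 11.9 FPKM in the 4 knockout libraries of these days. The 201 miRNA, snoRNA and snRNA genes above the minimum behaved apart: 145 of them (72.1%) were listed at 0 in at least 1 of the 4 libraries, against 17 (0.14%) of the other 12114 genes. They made up 7 of the 12 genes with the largest rise and 5 of the 12 with the largest fall, and are not described one by one.

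Between day 3 and day 6, 2231 genes rose (18.1% of those tested) and 2301 fell (18.7%), 36.8% in all, by limma with Benjamini-Hochberg adjustment over 12315 genes and an adjusted p under 0.05. The model put 1 mean on each genotype and day over all 12 embryoid body libraries. Rises were larger than falls: 417 genes rose at least 2-fold (3.39%) and 193 fell at least 2-fold (1.57%) on the log2(FPKM + 1) scale, while the median change over all genes was -0.01. Both day 6 libraries lay above both day 3 libraries for 34.8% of the genes and below them for 37.0%, 71.8% in all. With library weights estimated per group, 3272 of the called genes (26.6% of those tested) passed again. How many genes pass depended on which libraries set the spread. With the 4 libraries alone, 26 genes passed (0.211%), although 4564 had an unadjusted p under 0.05, against 5916 in the 12-library fit. Without day 3 replicate 1 or 2, 2445 or 2030 genes passed, and without day 6 replicate 1 or 2, 5299 or 2063.

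**Figure D1:**
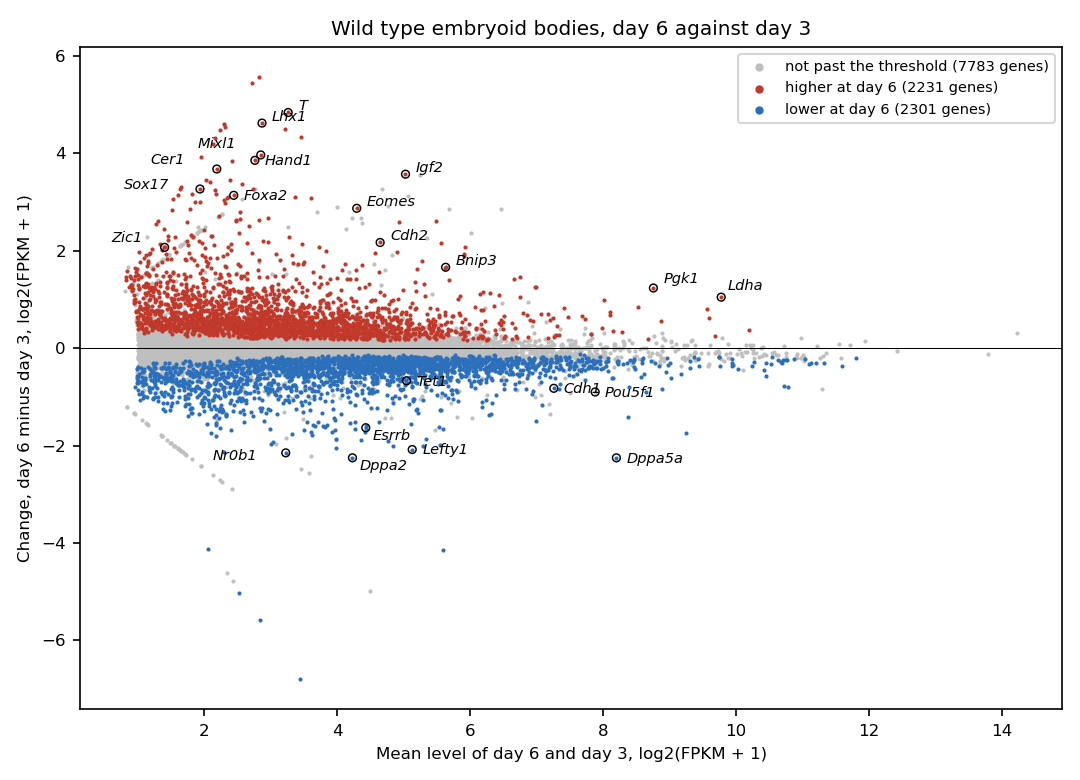
Each point is 1 of the 12315 genes, with its mean level over both days on the horizontal axis and its change, day 6 minus day 3, on the vertical axis, both as log2(FPKM + 1). Red points rose (2231), blue points fell (2301), grey points did not pass the test, and circles mark genes described in the text. The streak and endoderm genes sit at the upper left, and Ldha and Pgk1 at the far right.

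Leaving out the small RNA genes, a choice made after their values were seen, the genes with the largest rises whose libraries did not overlap were T, Lhx1, Cyp26a1, Spink1, Mixl1, Hand1, Aplnr and Cer1. All of these except Spink1 had a day 3 mean under 1 FPKM. They passed the minimum on their day 6 level alone and so had to be higher at day 6. The call of Hand1 was lost without day 3 replicate 1 or 2 (adjusted p 0.0898 and 0.102). T (Brachyury), the T-box factor of the streak and notochord, had 31.5 and 73.0 FPKM at day 6, against 0.798 and 0.650 FPKM at day 3. Its change was 4.83 on the log2(FPKM + 1) scale (SE 0.38, limma adjusted p = 0.000438). Aplnr, a G protein-coupled receptor of early mesoderm, had 6.65 and 37.9 FPKM at day 6, against 0.210 and 0.214 FPKM at day 3 (log2 change 3.83, SE 0.57, limma adjusted p = 0.00293). The lowest, by the same choice, were Dppa5a, Dppa2, Nr0b1, Sycp3 and Lefty1, of which Dppa5a and Lefty1 did not pass without day 3 replicate 1, and Dppa5a, Nr0b1 and Lefty1 did not pass without day 3 replicate 2. Sycp3, a protein of the meiotic chromosome axis, fell to 1.73 and 1.01 FPKM at day 6, against 9.95 and 8.53 FPKM at day 3 (log2 change -2.12, SE 0.19, limma adjusted p = 0.00068).

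Naive pluripotency genes fell as a group, and the core factors did not pass the test. Of 14 naive genes, 0 rose and 10 fell, with a median log2 change of -1.06. Esrrb, an orphan nuclear receptor of the naive network, had 16.2 and 6.998 FPKM at day 6, against 30.4 and 41.2 FPKM at day 3. Its change was -1.64 (SE 0.33, limma adjusted p = 0.00751), and both day 6 libraries lay below both day 3 libraries. Zfp42 (Rex1), a zinc finger marker of naive cells, had 20.7 and 7.06 FPKM at day 6 and 42.8 and 55.2 FPKM at day 3 (log2 change -1.91, SE 0.39). Klf4, a Krüppel-like factor, had 2.83 and 2.72 FPKM at day 6 and 2.17 and 3.33 FPKM at day 3, after 92.0 and 83.8 FPKM at day 0, so its decline had taken place before day 3. Tbx3, a T-box gene of naive cells and also of mesoderm, moved the other way in both libraries, mostly in replicate 2. It had 5.13 and 29.3 FPKM at day 6 against 3.28 and 4.35 FPKM at day 3, and did not pass (limma adjusted p = 0.0656). The count of naive genes that fell was 7 or 1 without day 3 replicate 1 or 2, and 10 or 6 without day 6 replicate 1 or 2. Without day 3 replicate 2, Esrrb and Zfp42 did not pass.

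Pou5f1 (Oct4) had 234 and 118 FPKM at day 6, against 315 and 309 FPKM at day 3. The log2 change of -0.90 (SE 0.42) had a limma adjusted p of 0.121. Sox2, the partner of Oct4, had 116 and 45.4 FPKM at day 6, against 132 and 134 FPKM at day 3 (log2 change -0.87, SE 0.46, limma adjusted p = 0.163). Nanog had 81.9 and 60.7 FPKM at day 6, against 108 and 116 FPKM at day 3 (log2 change -0.66, SE 0.38, limma adjusted p = 0.201). All 3 were lower in both day 6 libraries than in either day 3 library, and none passed. Without day 6 replicate 1, the log2 changes were -1.39 for Pou5f1, -1.53 for Sox2 and -0.87 for Nanog. Of 14 general pluripotency genes, 5 fell and 0 rose (median log2 change -0.59), and 1 (without day 3 replicate 2) to 9 (without day 6 replicate 1) fell when 1 library was left out. Dppa5a, an RNA-binding protein of pluripotent cells, fell to 223 and 67.8 FPKM at day 6, against 601 and 580 FPKM at day 3, and Dppa2, a chromatin factor of the same cells, to 13.2 and 3.43 FPKM, against 36.4 and 37.1 FPKM. The log2 change was -2.25 for both genes (SE 0.48 and 0.46, limma adjusted p = 0.00915 and 0.00761), and that of Dppa5a did not pass without either of the day 3 libraries.

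Of 13 formative epiblast genes 3 rose and 2 fell, near the shares over all genes, with a median log2 change of -0.44. Both day 6 libraries lay below both day 3 libraries for 9 of the 13, and for 37.0% of all genes tested. Fgf5, the classic marker of postimplantation epiblast, had 52.1 and 37.7 FPKM at day 6 and 60.9 and 58.7 FPKM at day 3, after 0.276 and 0.619 FPKM at day 0 (day 6 against day 3: log2 change -0.42, SE 0.26, limma adjusted p = 0.222). Otx2, a homeobox factor of epiblast and forebrain, had 64.7 and 38.0 FPKM at day 6 and 58.3 and 59.5 FPKM at day 3. Dnmt3b, a de novo DNA methyltransferase, had 361 and 216 FPKM at day 6 and 382 and 376 FPKM at day 3. None of these passed the test, and the log2 change of Dnmt3b was -0.81 without day 6 replicate 1. The members that rose were Fgf8, Lef1 and Cer1, which are also streak, Wnt or Nodal pathway genes, and those that fell were Nodal and Lefty2. The number that fell was 7 without day 6 replicate 1 and 1 without any 1 of the other 3 libraries.

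Primitive streak genes were among those with the largest rises. Of the 17 genes of the list 14 were above the minimum. Of these 12 rose, 1 fell (Nodal) and 1 did not pass (Fgf17), with a median log2 change of 3.08. However, 9 of these 14 passed the minimum on their day 6 level alone and so had to be higher at day 6, among them T, Lhx1, Mixl1, Gsc, Evx1 and Mesp1. Of the 5 with a mean of at least 1 FPKM on both days, 3 rose (Eomes, Fgf8 and Wnt3) and 1 fell. Wnt3a, Mesp2 and Noto were under the minimum. Lhx1, a LIM homeobox gene of the anterior streak and node, had 20.9 and 52.8 FPKM at day 6, against 0.531 and 0.282 FPKM at day 3 (log2 change 4.61, SE 0.33, limma adjusted p = 0.000358). Mixl1, a homeobox factor of mesendoderm, had 14.9 and 43.7 FPKM at day 6, against 0.677 and 0.747 FPKM at day 3 (log2 change 3.96, SE 0.40). Gsc, the organizer homeobox gene, had 9.79 and 15.99 FPKM at day 6, against 0.363 and 0.493 FPKM at day 3 (log2 change 3.25, SE 0.20). Eomes, a T-box factor needed for endoderm, had 31.6 and 77.0 FPKM at day 6, against 5.30 and 6.59 FPKM at day 3, the highest day 3 level of these 4 factors (log2 change 2.87, SE 0.34). In each of these genes replicate 2 was the higher day 6 library, and the groups did not overlap.

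Other streak genes include those of the posterior streak and early mesoderm. Mesp1, a bHLH factor of the earliest cardiac mesoderm, had 1.86 and 23.7 FPKM at day 6, against 0.0336 and 0.0685 FPKM at day 3 (log2 change 3.00, SE 0.76, limma adjusted p = 0.0169). Evx1, a homeobox gene of the posterior streak, had 3.66 and 18.0 FPKM at day 6, against 0.0550 and 0.0448 FPKM at day 3 (log2 change 3.16, SE 0.50). Cyp26a1, an enzyme that degrades retinoic acid, had 24.3 and 66.8 FPKM at day 6, against 0.913 and 0.759 FPKM at day 3 (log2 change 4.50, SE 0.38). Fgf17, a secreted FGF, had 4.27 and 4.33 FPKM at day 6 and 3.92 and 3.75 FPKM at day 3, and both days were below the 16.9 and 15.99 FPKM of day 0. The count of streak genes that rose was 10 to 12 when any of the 4 libraries was left out. Mesp1 did not pass without day 3 replicate 1 or 2 (adjusted p 0.0756 and 0.0783), and Nodal did not without day 3 replicate 1 or 2 or without day 6 replicate 2.

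Members of the Nodal pathway changed in both directions. Of 16 tested, 5 rose and 6 fell, with a median log2 change of 0.02, where over all genes 18.1% rose and 18.7% fell. Of the 5 that rose, 2 (Cfc1 and Cer1) had passed the minimum on their day 6 level alone and so had to be higher. Of the 14 with a mean of at least 1 FPKM on both days, 3 rose and 6 fell. Among the ligands, Nodal had 19.5 and 12.1 FPKM at day 6, against 27.0 and 28.8 FPKM at day 3 (log2 change -0.82, SE 0.21, limma adjusted p = 0.0186). Gdf3, a related ligand, had 11.1 and 4.10 FPKM at day 6, against 26.3 and 29.2 FPKM at day 3 (log2 change -1.87, SE 0.36). The co-receptor Cfc1 (Cryptic) rose to 4.01 and 27.1 FPKM at day 6, against 0.317 and 0.573 FPKM at day 3 (log2 change 3.04, SE 0.62), while its relative Tdgf1 (Cripto) had 189 and 227 FPKM at day 6 and 235 and 227 FPKM at day 3. The secreted inhibitors went in opposite directions. Lefty2 had 29.1 and 12.8 FPKM at day 6, against 73.5 and 72.3 FPKM at day 3 (log2 change -1.86, SE 0.36, limma adjusted p = 0.00617), whereas Cer1 (Cerberus) had 13.2 and 17.4 FPKM at day 6, against 0.268 and 0.272 FPKM at day 3 (log2 change 3.67, SE 0.26, limma adjusted p = 0.000337). Smad3, a transducer of the signal, rose (log2 change 1.02, SE 0.15), and Smad7, an inhibitory Smad, fell (log2 change -0.64, SE 0.14). The number that fell was 2 or 3 without day 3 replicate 1 or 2 and 3 without day 6 replicate 2, and Smad7 did not pass without day 3 replicate 1 or day 6 replicate 2.

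Endoderm genes rose in both day 6 libraries. Of 12 definitive endoderm genes 8 rose and 1 fell, with a median log2 change of 1.25, and 4 of the 8 that rose had passed the minimum on their day 6 level alone. Sox17, the HMG box factor that specifies endoderm, had 6.31 and 16.5 FPKM at day 6, against 0.200 and 0.155 FPKM at day 3 (log2 change 3.26, SE 0.40, limma adjusted p = 0.00158). Foxa2, a forkhead factor of endoderm and node, had 12.3 and 18.2 FPKM at day 6, against 0.772 and 0.868 FPKM at day 3 (log2 change 3.13, SE 0.30, limma adjusted p = 0.000928). Cxcr4, a chemokine receptor on definitive endoderm, had 15.1 and 47.5 FPKM at day 6, against 2.56 and 2.01 FPKM at day 3 (log2 change 3.10, SE 0.42). Trh, which encodes the precursor of thyrotropin-releasing hormone, was the member that fell, with 338 and 250 FPKM at day 6, against 508 and 578 FPKM at day 3 (log2 change -0.90, SE 0.18), and its call was lost without day 3 replicate 2 or day 6 replicate 2. Leaving out 1 library gave 4 (without day 3 replicate 2) to 8 members higher. In the extraembryonic endoderm list 9 of 14 tested genes rose and 1 (Apoe) fell, and 3 of the 9 had passed the minimum on their day 6 level alone. Over all genes 18.1% rose and 18.7% fell. Of its members Afp was listed at 0 in day 6 replicate 1 and at 0.0177 FPKM in replicate 2, and Ttr, Apoa1, Apob, Amn and Hnf4a were also under the minimum. The members that rose included Gata4, Gata6 and Sox17, shared with definitive endoderm, and the basement membrane genes Col4a1 and Col4a2. Leaving out 1 library gave 6 to 10 members higher. Apoe did not pass without day 3 replicate 1, nor Gata4 without day 3 replicate 2.

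**Figure D2:**
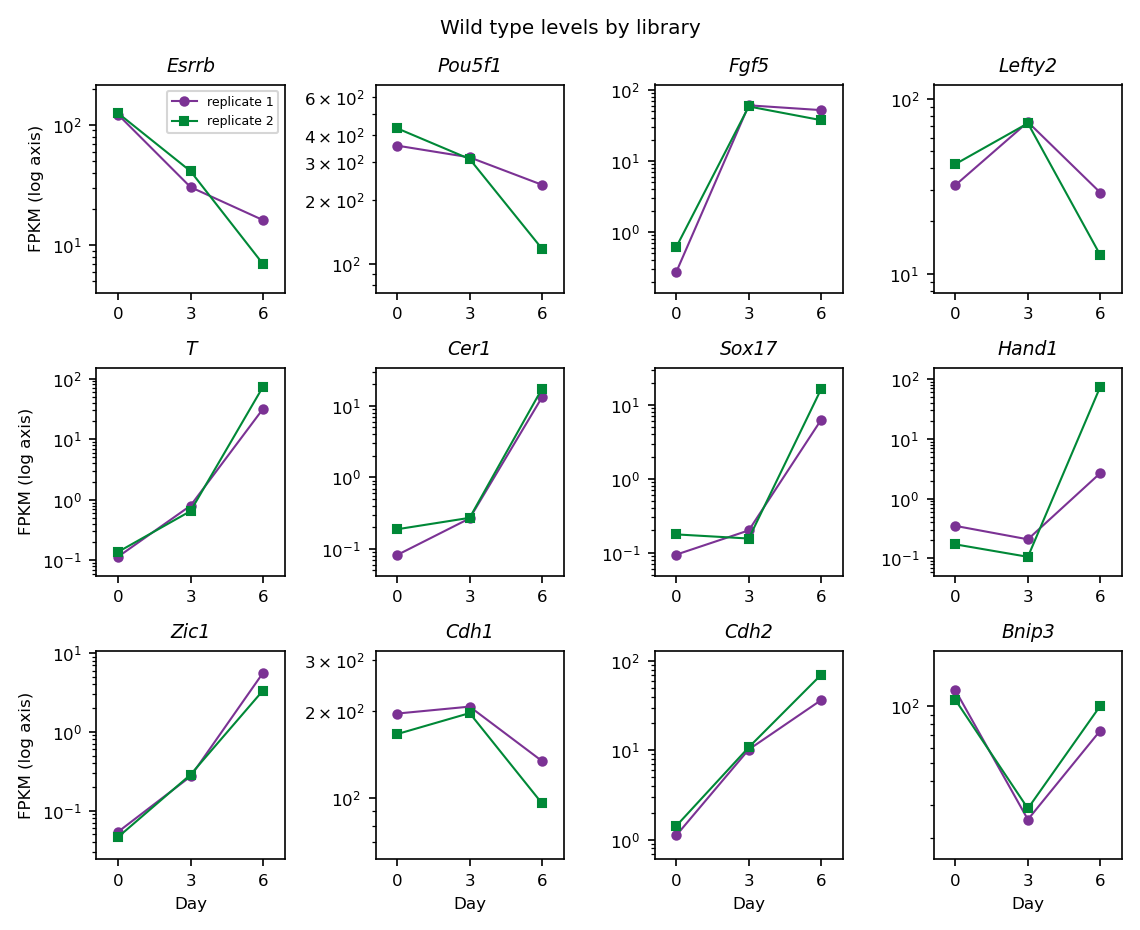
FPKM of 12 genes in each wild type library at days 0, 3 and 6, on log axes that differ between panels. Circles are replicate 1 and squares replicate 2, and lines join libraries of the same number only as a guide. T, Cer1, Sox17, Hand1 and Zic1 were higher at day 6 than on both earlier days, Bnip3 was lowest at day 3, and Hand1 shows the widest gap between the day 6 libraries (2.67 and 74.6 FPKM).

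Lateral and cardiac mesoderm genes were higher in replicate 2 than in replicate 1 at day 6 for 14 of 14 tested. Of the 14, 9 had passed the minimum on their day 6 level alone, which a high value in 1 library can bring about. Of the 14, 8 rose and 0 fell relative to day 3, with a median log2 change of 2.06. Of the 8 that rose, 6 had passed the minimum on their day 6 level alone. Hand1, a bHLH factor of lateral mesoderm, extraembryonic mesoderm and trophoblast, had 2.67 and 74.6 FPKM at day 6, against 0.208 and 0.106 FPKM at day 3 (log2 change 3.85, SE 1.07, limma adjusted p = 0.0236). Msx2, a homeobox target of BMP, had 3.02 and 32.9 FPKM at day 6, against 0.541 and 0.214 FPKM at day 3 (log2 change 3.09, SE 0.76, limma adjusted p = 0.0151). Foxf1, a forkhead factor of lateral mesoderm, had 0.639 and 22.3 FPKM at day 6, against 0.146 and 0.0809 FPKM at day 3, and did not pass (log2 change 2.47, SE 0.94, limma adjusted p = 0.0685). Its log2 change was 4.39 in day 6 replicate 2 alone and 0.56 in replicate 1 alone. Fits that leave out 1 library hold no spread for that group and borrow it from the other groups. Without day 6 replicate 1 all 14 rose, without day 6 replicate 2 it was 5, and without day 3 replicate 1 or 2 it was 3 or 1. Hand1 passed without either of the day 6 libraries, with a log2 change of 6.03 without replicate 1 and 1.67 without replicate 2, and did not pass without day 3 replicate 1 or 2 (adjusted p 0.0898 and 0.102). The adjusted p of Msx2 was likewise above 0.05 without either of the day 3 libraries.

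Of 14 blood and endothelial genes 3 rose and 1 fell, with a median log2 change of 0.34, where over all genes 18.1% rose and 18.7% fell. Kdr (Flk1), the VEGF receptor of haemangioblasts, had 4.41 and 33.0 FPKM at day 6, against 1.67 and 2.42 FPKM at day 3 (log2 change 2.17, SE 0.65, limma adjusted p = 0.0309). Without day 3 replicate 1 or 2 its adjusted p was 0.136 or 0.0958. Tal1, the bHLH master factor of blood, had 1.04 and 7.17 FPKM at day 6 and 1.07 and 1.00 FPKM at day 3, so day 6 replicate 2 alone stood apart. Leaving out 1 library gave 0 (without day 3 replicate 1 or 2) to 9 (without day 6 replicate 1) blood and endothelial genes higher. In the paraxial list 7 of 16 genes were above the minimum, of which 4 rose and 1 fell, with 2 to 4 higher when 1 library was left out. Rspo3, a secreted Wnt enhancer, had 5.49 and 23.1 FPKM at day 6, against 1.07 and 0.956 FPKM at day 3 (log2 change 2.64, SE 0.47, limma adjusted p = 0.0049). Msgn1, a bHLH factor of presomitic mesoderm, was under the minimum, with 0.379 and 1.91 FPKM at day 6 and 0 in both day 3 libraries. Only 4 of 42 Cdx and Hox genes were above the minimum, all on their day 6 level alone, and 2 of them, Cdx2 and Hoxb3, rose. Neither of these passed when 1 of day 3 replicate 1, day 3 replicate 2 or day 6 replicate 2 was left out.

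Of 17 BMP ligands and targets, 12 rose and 1 (Smad7) fell, with a median log2 change of 1.62, and 7 to 15 rose when 1 library was left out. Of the 12 that rose, 8 had passed the minimum on their day 6 level alone. Bmp2 had 2.91 and 13.2 FPKM at day 6, against 0.254 and 0.214 FPKM at day 3 (log2 change 2.59, SE 0.48, limma adjusted p = 0.00549). Bmp4 had 3.10 and 16.7 FPKM at day 6 and 1.80 and 2.04 FPKM at day 3 (log2 change 1.54, SE 0.54, limma adjusted p = 0.0532), both below the 34.3 and 25.7 FPKM of day 0. Its log2 change was 2.60 without day 6 replicate 1, a fit that holds no spread between day 6 libraries. Id1 and Id3, direct BMP targets that block bHLH factors, rose. Id1 had 38.0 and 96.0 FPKM at day 6, against 19 and 18.98 FPKM at day 3 (log2 change 1.62, SE 0.33), and Id3 had 53.6 and 90.1 FPKM at day 6, against 19.5 and 19.6 FPKM at day 3 (log2 change 1.78, SE 0.29). The BMP antagonists Nog and Chrd rose too, Nog to 1.35 and 3.50 FPKM at day 6, against 0.154 and 0.0697 FPKM at day 3, and Chrd to 2.05 and 2.42 FPKM at day 6, against 0.661 and 0.554 FPKM at day 3.

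Of 19 Wnt ligands 4 were above the minimum, Wnt5a and Wnt5b on their day 6 level alone. These 4 rose, and 1 (without day 3 replicate 2) to 4 rose when 1 library was left out. Wnt3, the ligand that starts the streak, had 3.20 and 11.1 FPKM at day 6, against 1.22 and 1.03 FPKM at day 3 (log2 change 1.75, SE 0.38), and did not pass without day 3 replicate 2. Wnt5b, a noncanonical ligand, had 1.72 and 2.57 FPKM at day 6, against 0.722 and 0.688 FPKM at day 3. Of 13 Wnt feedback and target genes 8 rose and 2 fell, and 7 to 9 rose when 1 library was left out. Of the 8 that rose, 4 had passed the minimum on their day 6 level alone. Axin2, the negative feedback scaffold, had 10.4 and 22.5 FPKM at day 6, against 4.48 and 5.90 FPKM at day 3 (log2 change 1.41, SE 0.27, limma adjusted p = 0.00621). Dkk1, a secreted Wnt antagonist, had 3.25 and 11.5 FPKM at day 6, against 0.521 and 0.471 FPKM at day 3 (log2 change 2.29, SE 0.39). Sp5, whose upstream sequence holds the CTTTGA core 2 times, had 7.45 and 18.6 FPKM at day 6, against 0.155 and 0.221 FPKM at day 3 (log2 change 3.44, SE 0.32, limma adjusted p = 0.000856). Frzb, a decoy receptor for Wnt, had 11.4 and 21.9 FPKM at day 6, against 0.563 and 0.507 FPKM at day 3 (log2 change 3.46, SE 0.23).

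FGF genes were divided, and 2 of those that rose had passed the minimum on their day 6 level alone. For this list and the Notch list below, the shares over all genes were 18.1% higher and 18.7% lower. Of 20 genes 8 rose and 2 fell, with a median log2 change of 0.18, and 3 to 7 rose when 1 library was left out. Fgf8, the streak FGF, had 39.7 and 79.0 FPKM at day 6, against 15.2 and 12.3 FPKM at day 3 (log2 change 1.96, SE 0.27, limma adjusted p = 0.00226). Fgf4, the FGF of pluripotent cells, had 11.2 and 3.74 FPKM at day 6, against 24.0 and 21.0 FPKM at day 3 (log2 change -1.63, SE 0.40, limma adjusted p = 0.0151), and did not pass without day 3 replicate 1, day 3 replicate 2 or day 6 replicate 2. Spry4, a feedback inhibitor of FGF signalling, fell (log2 change -0.92, SE 0.15, limma adjusted p = 0.00344). Among 12 Notch pathway genes 7 rose and 1 fell, with 5 to 10 higher when 1 library was left out. The targets Hes1 and Nrarp had 34.4 and 49.4 FPKM and 7.65 and 9.85 FPKM at day 6, against 19.6 and 20.3 FPKM and 3.26 and 3.11 FPKM at day 3 (log2 changes 1.01 and 1.21, SE 0.16 and 0.11). Crabp1, a retinoic acid binding protein, had 16.9 and 24.1 FPKM at day 6, against 3.28 and 3.49 FPKM at day 3 (log2 change 2.27, SE 0.17, limma adjusted p = 0.000368).

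Some neural progenitor genes rose, and none of the neuronal genes tested did. Of 19 progenitor genes tested 7 rose and 0 fell, with a median log2 change of 0.62, and 4 of the 7 had passed the minimum on their day 6 level alone. Of the 13 with a mean of at least 1 FPKM on both days 3 rose, near the 18.1% over all genes. Zic1, a zinc finger factor of the dorsal neural plate, had 5.59 and 3.34 FPKM at day 6, against 0.271 and 0.286 FPKM at day 3 (log2 change 2.06, SE 0.28). Sox11, a SoxC factor of neural and mesenchymal progenitors, had 49.0 and 46.1 FPKM at day 6, against 25.6 and 27.0 FPKM at day 3 (log2 change 0.83, SE 0.07, limma adjusted p = 0.000544). Sox1, the earliest pan-neural marker, had 17.3 and 5.95 FPKM at day 6 and 5.89 and 3.16 FPKM at day 3, and did not pass (log2 change 1.07, SE 0.60, limma adjusted p = 0.185). Pax6, a neural and eye factor, had 5.85 and 2.59 FPKM at day 6 and 5.14 and 4.35 FPKM at day 3 (limma adjusted p = 0.667). For Zic1 and Sox1 replicate 1 was the higher day 6 library, the opposite of most streak genes and of the lateral and cardiac mesoderm genes. Of the 7 paraxial mesoderm genes tested, 3 were higher in replicate 2. Of 11 neuronal genes 0 rose and 3 fell, where 18.7% of all genes fell. The transcription factor Neurod1 had 0.846 and 0.421 FPKM at day 6, against 2.11 and 2.54 FPKM at day 3 (log2 change -1.03, SE 0.15, limma adjusted p = 0.0026), and Dcx, Neurog1 and Neurog2 stayed under the minimum. Leaving out 1 library gave 4 to 7 progenitor genes higher and 1 to 5 neuronal genes lower.

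Of 21 genes of cell contact and of the epithelial to mesenchymal transition, 10 rose and 6 fell, where over all genes 18.1% rose and 18.7% fell. Those that fell were epithelial (Cdh1, Epcam, Esrp1, Cldn4, Cldn7 and Ocln), and Dsp, also epithelial, rose. Of the 10 that rose, 1 had passed the minimum on its day 6 level alone, as had 3 of the 11 matrix genes given below that rose. Cdh1 (E-cadherin), the epithelial adhesion molecule, had 134 and 95.5 FPKM at day 6, against 207 and 196 FPKM at day 3 (log2 change -0.83, SE 0.15, limma adjusted p = 0.00529). Cdh2 (N-cadherin) had 36.5 and 70.1 FPKM at day 6, against 10.2 and 10.8 FPKM at day 3 (log2 change 2.16, SE 0.24, limma adjusted p = 0.00124). Cdh11, a mesenchymal cadherin, had 9.37 and 33.3 FPKM at day 6, against 1.02 and 0.927 FPKM at day 3 (log2 change 3.26, SE 0.45). Snai1, the repressor of E-cadherin, had 3.20 and 19.04 FPKM at day 6, against 1.08 and 1.27 FPKM at day 3 (log2 change 2.08, SE 0.56, limma adjusted p = 0.0203), and did not pass without either of the day 3 libraries. The simple epithelial keratins Krt8 and Krt18 rose to 71.9 and 186 FPKM and to 73.2 and 169 FPKM at day 6, against 30.8 and 23.2 FPKM and 32.6 and 25.0 FPKM at day 3 (log2 changes 2.07 and 1.92, SE 0.38 and 0.34). Both keratins are also in the trophoblast list, in which 7 of 8 tested genes rose, 3 of them above the minimum on their day 6 level alone, while Elf5, Ascl2, Tpbpa and Gcm1 were under the minimum and Prl3d1 was listed at 0 in all 4 libraries. Without either of the day 3 libraries 4 trophoblast genes rose. Of 25 matrix genes 11 rose and 2 fell, with 9 to 15 higher when 1 library was left out. Leaving out 1 library gave 5 to 12 contact genes higher and 1 to 7 lower.

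Glycolysis and hypoxia response genes rose in most cases. Of 23 tested 18 rose and 1 fell, with a median log2 change of 0.81, and the numbers were 17 to 19 higher and 1 lower when any 1 of the 4 libraries was left out. Summed over the list, the level was 7290 and 8660 FPKM at day 6, against 4940 and 5260 FPKM at day 3, and 7450 and 7300 FPKM at day 0. The day 6 sums were thus above both day 3 sums, and day 3 was the lowest of the 3 days. Ldha (lactate dehydrogenase A) had 1066 and 1467 FPKM at day 6, against 603 and 610 FPKM at day 3 (log2 change 1.04, SE 0.14, limma adjusted p = 0.00228). Pgk1 (phosphoglycerate kinase) had 549 and 784 FPKM at day 6, against 268 and 291 FPKM at day 3 (log2 change 1.23, SE 0.14). Both have ACGTG cores in the sequences shown above. Many glycolytic enzymes have processed pseudogenes, so their reads may be shared with near-identical copies.

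Several known HIF targets outside glycolysis rose too. Car9, of the same glycolysis and hypoxia list, was under the minimum, and 4 of the 23 tested members did not pass. Bnip3, a mitophagy receptor, had 74.2 and 100 FPKM at day 6, against 25.0 and 28.6 FPKM at day 3, after 121 and 108 FPKM at day 0 (day 6 against day 3: log2 change 1.66, SE 0.17, limma adjusted p = 0.00111). Vegfa, the endothelial growth factor, had 14.6 and 31.4 FPKM at day 6, against 4.15 and 4.08 FPKM at day 3 (log2 change 2.14, SE 0.28). Ankrd37 had 17.6 and 36.4 FPKM at day 6, against 4.61 and 5.97 FPKM at day 3 (log2 change 2.08, SE 0.27). Ddit4 (Redd1), an inhibitor of mTORC1, had 71.6 and 129 FPKM at day 6, against 21.9 and 20 FPKM at day 3 (log2 change 2.15, SE 0.23). Pdk1, which restrains entry of pyruvate into mitochondria and is also a HIF target, was the member that fell. It had 47.2 and 36.7 FPKM at day 6, against 63.3 and 63.5 FPKM at day 3 (log2 change -0.60, SE 0.12, limma adjusted p = 0.00756). Gapdh had 1278 and 1212 FPKM at day 6 and 1096 and 1282 FPKM at day 3, and its libraries overlapped. The oxygen supply of the aggregates was not measured, and its part in these changes was not tested.

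Of 11 enzymes and cofactors of DNA methylation and its removal 1 rose and 2 fell, where 36.8% of all genes were called. The number that fell was 0 (without day 3 replicate 2 or day 6 replicate 2) to 5 (without day 6 replicate 1) when 1 library was left out. Tet1, which oxidises 5-methylcytosine, had 28.8 and 21.7 FPKM at day 6, against 41.1 and 39.7 FPKM at day 3 (log2 change -0.67, SE 0.15, limma adjusted p = 0.0115), and did not pass without day 3 replicate 1, day 3 replicate 2 or day 6 replicate 2. Tet2 had 6.203 and 5.922 FPKM at day 6 and 6.01 and 6.74 FPKM at day 3, after 78.6 and 64.7 FPKM at day 0. Tet3 had 8.29 and 8.30 FPKM at day 6, against 5 and 4.37 FPKM at day 3 (log2 change 0.71, SE 0.12, limma adjusted p = 0.00376), above the level of Tet2 in both day 6 libraries. Dnmt3l, the cofactor of the de novo enzymes, fell to 13.5 and 3.46 FPKM at day 6, against 21.7 and 28.0 FPKM at day 3, and its call was lost without day 3 replicate 1, day 3 replicate 2 or day 6 replicate 2. Dnmt1, the maintenance enzyme, had 59.6 and 55.4 FPKM at day 6 and 56.7 and 57.3 FPKM at day 3. The wild type level of Cxxc5 did not pass either (log2 change 0.44, SE 0.20, limma adjusted p = 0.114).

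Of 24 imprinted genes 10 rose and 2 fell, with 4 (without day 3 replicate 2) to 13 higher when 1 library was left out. Igf2, a fetal growth factor, had 32.5 and 243 FPKM at day 6, against 7.25 and 6.06 FPKM at day 3 (log2 change 3.57, SE 0.74, limma adjusted p = 0.00834), and did not pass without day 3 replicate 2. H19, the neighbouring noncoding RNA, did not pass. It had 11.5 and 80.1 FPKM at day 6 and 9.23 and 15.7 FPKM at day 3, so replicate 1 lay between the day 3 libraries. Its log2 change was 2.63 in day 6 replicate 2 alone and -0.06 in replicate 1 alone. Mest, also a fetal growth gene, had 141 and 188 FPKM at day 6, against 54.6 and 66.1 FPKM at day 3 (log2 change 1.42, SE 0.24, limma adjusted p = 0.00397). Of 25 cell cycle genes 5 rose and 6 fell, near the shares over all genes (18.1% and 18.7%), with 1 to 6 higher and 0 to 9 lower when 1 library was left out. Ribosomal protein genes gave 7 of 20 lower and 0 higher, but 0 lower and 2 higher after quantile normalization, so their direction depends on the scaling, and 0 to 4 were lower when 1 library was left out. Markers of feeder fibroblasts were low, with 8 of 14 genes above the minimum, 1 higher and 1 lower, and summed levels of 35.8 and 43.1 FPKM at day 6 and 47.7 and 34.9 FPKM at day 3.

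The 2 wild type libraries of day 6 differed from each other more than those of day 3. At day 6, 395 genes (3.21%) differed at least 2-fold between the replicates, 227 higher in replicate 2 (1.84%) and 168 higher in replicate 1 (1.36%), against 116 genes (0.942%) at day 3. The median absolute difference was 0.142 at day 6 and 0.083 at day 3 on the log2(FPKM + 1) scale. The difference varied between the lists, and its median over all genes was -0.003. In replicate 2 the median of the lateral and cardiac mesoderm genes was 2.18 higher, with 14 of 14 genes higher. That of the BMP genes was 1.36 higher, of the streak genes 1.24 higher and of blood and endothelium 1.06 higher. However, 9 of 14 lateral mesoderm, 9 of 17 BMP and 9 of 14 streak genes passed the minimum on their day 6 level alone. A high value in 1 day 6 library can bring this about, so these medians are in part set by the selection. For paraxial mesoderm genes the median difference was -0.17, with 3 of 7 higher in replicate 2. Naive pluripotency genes in replicate 2 had a median difference of -0.98, neural progenitors of -0.69 and neurons of -0.57. On the first principal component, which held 59.7% of the variance and followed the days, the day 6 libraries stood at 29.6 and 54.4 and the day 3 libraries at 3 and -1.39. For blood and endothelium the medians were -0.12 in replicate 1 and 0.97 in replicate 2. These differences are descriptions, and no test was made of 1 library against another.

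**Figure D3:**
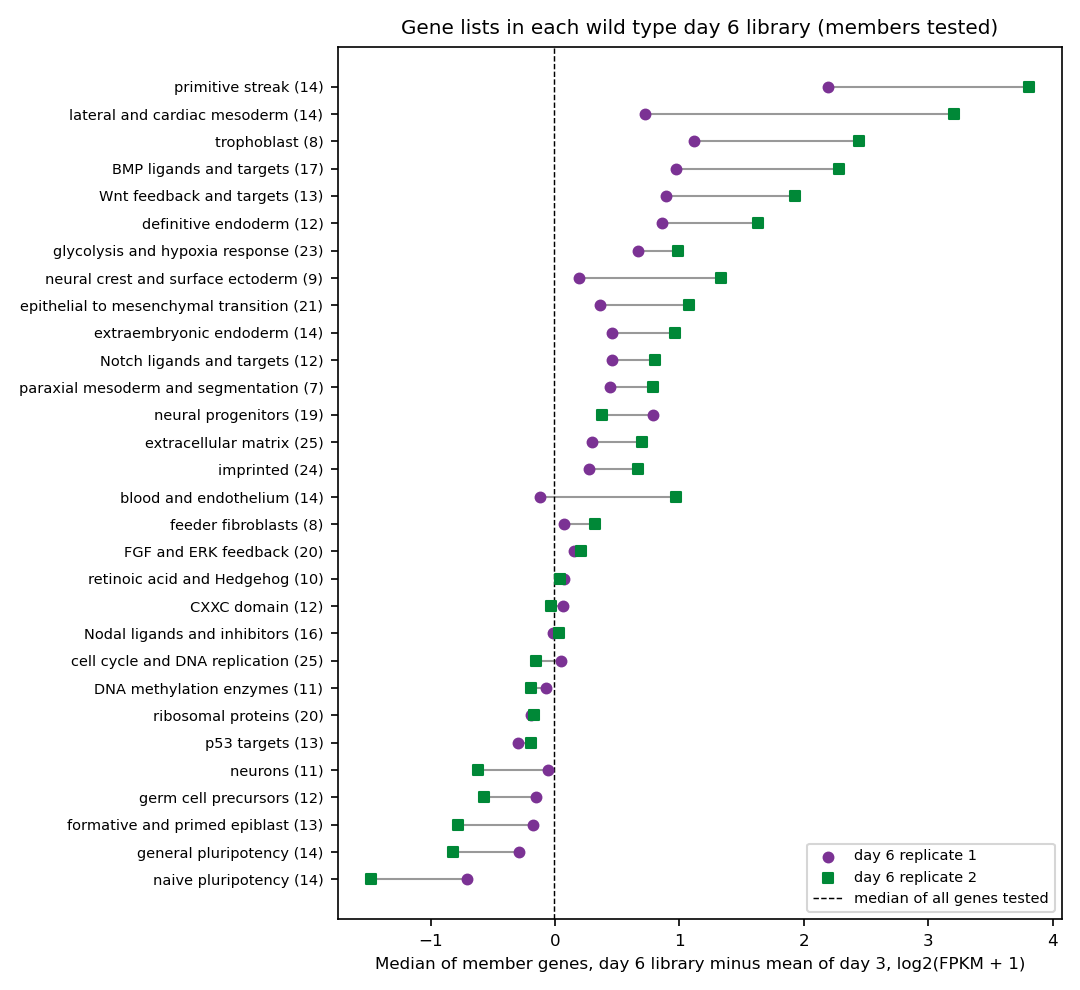
Median change of the member genes of each list with at least 7 tested members, for each day 6 library minus the mean of the day 3 libraries, as log2(FPKM + 1). Circles are day 6 replicate 1, squares day 6 replicate 2, and the dashed line is the median of all genes tested (-0.01). Replicate 2 lies farther from the line for streak, mesoderm and pluripotency lists, and replicate 1 for neural progenitors.

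The same days in the Cxxc5 knockout gave a step that differed from the wild type step for 541 genes (4.39% of those tested), 145 (1.18%) with a higher and 396 (3.22%) with a lower change in the knockout, by the interaction contrast of the same limma fit. The number moved widely with single libraries. It was 31 or 55 without knockout day 3 replicate 1 or 2, 48 or 149 without wild type day 3 replicate 1 or 2, 1032 or 151 without knockout day 6 replicate 1 or 2, and 267 or 2168 without wild type day 6 replicate 1 or 2. Of the genes named by the fixed rule, Cer1, Peg12, Lfng, Trp53inp1 and Eda2r had a lower and Lef1, Apoe and Cdkn1c a higher change in the knockout. Cer1 had 1.60 and 3.91 FPKM in knockout at day 6 and 0.0852 and 0.0899 FPKM in knockout at day 3, against 13.2 and 17.4 FPKM in wild type at day 6 and 0.268 and 0.272 FPKM in wild type at day 3. The difference of the changes was -1.96 (SE 0.37, limma adjusted p = 0.0285), and it did not pass without any 1 of the 4 day 3 libraries. Cer1 rose in both genotypes. Apoe, an apolipoprotein, had 538 and 740 FPKM in knockout at day 6 and 484 and 495 FPKM in knockout at day 3, against 226 and 282 FPKM in wild type at day 6 and 490 and 395 FPKM in wild type at day 3. The difference was 1.16 (SE 0.23, limma adjusted p = 0.0323), and it did not pass without any 1 of the 4 day 3 libraries, without knockout day 6 replicate 2 or without wild type day 6 replicate 1.

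Some genes fell several-fold in the knockout alone or fell far more there than in wild type. They were chosen after their values were seen. Snhg14, the long noncoding host transcript of the Prader-Willi region (chr7:59272737-60450177), had 3.11 and 3.20 FPKM in knockout at day 6 and 53.2 and 48.1 FPKM in knockout at day 3, against 71.9 and 57.4 FPKM in wild type at day 6 and 61.4 and 78.9 FPKM in wild type at day 3. The difference was -3.52 (SE 0.19, limma adjusted p = 0.000314). Slc24a5, a potassium-dependent sodium/calcium exchanger, had 4.13 and 4.96 FPKM in knockout at day 6 and 41.0 and 39.7 FPKM in knockout at day 3, against 32.9 and 28.8 FPKM in wild type at day 6 and 43.2 and 45.9 FPKM in wild type at day 3 (difference -2.39, SE 0.15, limma adjusted p = 0.000314). Zfp758, a zinc finger gene, had 0.904 and 0.798 FPKM in knockout at day 6 and 8.52 and 8.41 FPKM in knockout at day 3, against 6.73 and 6.07 FPKM in wild type at day 6 and 7.50 and 7.49 FPKM in wild type at day 3 (difference -2.15, SE 0.13, limma adjusted p = 0.000314). Slc24a5 fell in wild type too (log2 change -0.52, limma adjusted p = 0.00764), while Snhg14 and Zfp758 did not pass there. The differences of these 3 genes passed in every alternative that was run. The streak, lateral mesoderm, definitive endoderm, BMP and neural progenitor lists each had 0 members whose step differed between genotypes at this threshold. Over all genes the share was 4.39%, so 0 in lists of this size is near that share. Their median differences were 0.55, 2.03, 0.31, 1.03 and -0.89, on 2 libraries per group, which does not show that the genotypes act alike. Blood and endothelium and extraembryonic endoderm each had 1 member with a higher change in the knockout. Paraxial mesoderm had 1 with a lower change, and formative epiblast had 1 in each direction.

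**Figure D4:**
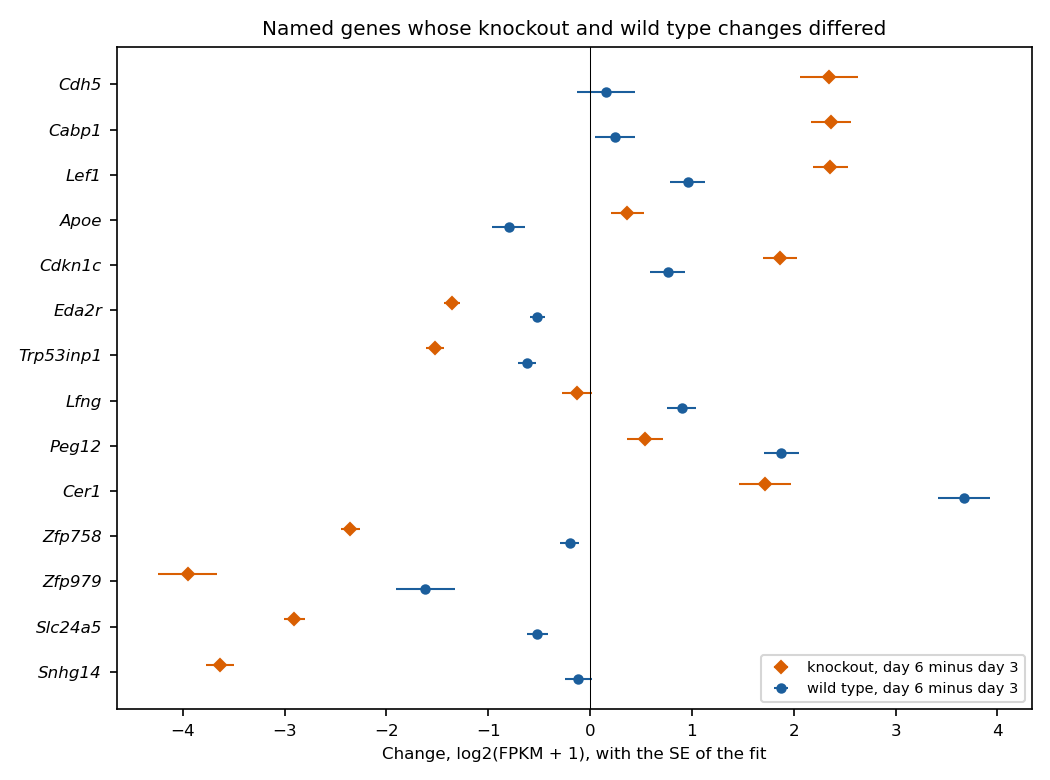
Change from day 3 to day 6 in the knockout (diamonds, upper of each pair) and in wild type (circles, lower) for the 14 named genes whose changes differed, as log2(FPKM + 1). Bars are the SE of the limma fit. Snhg14 and Zfp758 lie near 0 in wild type and between -4 and -2 in the knockout, and Cer1 is the gene with the highest wild type change among the 14.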

How the data were processed

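RNA of embryoid bodies was sequenced as single-end reads. Per the series' design text Trim Galore 0.4.1 trimmed the reads and TopHat2 2.0.13 aligned them to mm10, and HTSeq 0.6.1, Cufflinks 2.2.1 and Cuffdiff are named in the submitters' processing notes without a role. Which annotation was used, and whether strand was, no source used here says. The values are FPKM as the authors deposited them, a unit scaled to the length of the transcript and the size of the library, in 24550 rows of which 92 are spike-ins at 0.

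Columns were matched to samples by genotype, replicate and day. Genes with a mean of at least 1 FPKM over the 4 wild type day 6 and day 3 libraries were tested on log2(FPKM + 1) by limma (version 3.58.1, R 4.3.3), with a variance trend, 12 libraries, 1 mean per genotype and day, two-sided tests and Benjamini-Hochberg adjustment; past the threshold is an adjusted p under 0.05. This scale understates the change of low genes. With 2 libraries against 2, an exact permutation test could not give a p under 0.333, so none was used. Scripts were tested on simulated data. Depth was estimated from the steps of 1 read among low values, with transcript lengths of GENCODE vM21, and covers counting error only. RefSeq matched 12291 of 12315 genes and gave positions and upstream sequences.

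The gene set and the 34 lists were chosen with earlier results of these data known. Named genes are 20 anchor genes, up to 4 members of each list and direction with the largest change past the threshold, the 12 highest and 12 lowest, the 8 largest replicate differences at day 6 in each direction, the genes nearest the minimum, and genes stated to be chosen after their values were seen; members quoted to complete a list are given as values. The 16 genes with the largest replicate differences were all small RNA genes and are not printed. Replicate numbers were not taken to pair libraries: the labels tie no number to a line across days, and the replicate differences of day 6 and day 3 correlated at 0.007 over genes. Stem cell and ChIP data of the series were not used here. Some genes that the rule names are not reported here.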

Additional observations from a re-analysis of the deposited data

Results flagged for a closer look

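For 14 named genes the change from day 3 to day 6 differed between knockout and wild type (interaction contrast, limma adjusted p under 0.05). Over all genes tested the share was 4.39%. Cdh5, Cabp1, Snhg14, Slc24a5, Zfp758 and Zfp979 were not named by the fixed rule. They were chosen after their values were seen, so the count of 14 is in part set by that choice. The differences, knockout change minus wild type change on the log2(FPKM + 1) scale, were 2.19 for Cdh5, 2.13 for Cabp1, 1.40 for Lef1, 1.16 for Apoe and 1.10 for Cdkn1c. They were -0.84 for Eda2r, -0.90 for Trp53inp1, -1.03 for Lfng, -1.34 for Peg12, -1.96 for Cer1, -2.15 for Zfp758, -2.34 for Zfp979, -2.39 for Slc24a5 and -3.52 for Snhg14. Apoe changed by 0.36 in the knockout (limma adjusted p = 0.0795) and by -0.80 in wild type (limma adjusted p = 0.00741). Cdh5 (VE-cadherin), the adhesion molecule of endothelium, had 8.16 and 11.4 FPKM in knockout at day 6 and 0.954 and 1.25 FPKM in knockout at day 3, against 0.952 and 2.92 FPKM in wild type at day 6 and 1.45 and 1.52 FPKM in wild type at day 3. Lef1, an effector of Wnt, had 40.3 and 38.5 FPKM in knockout at day 6 and 7.53 and 6.25 FPKM in knockout at day 3, against 21.8 and 30.5 FPKM in wild type at day 6 and 11.3 and 14.5 FPKM in wild type at day 3. Leaving out 1 library lost the call of 11 of the 14 genes in at least 1 case, and did not for Snhg14, Slc24a5 and Zfp758. Removing GC and length trends lost the call of 8 of the 14 genes, and the replicate block that of 5.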

How the results depend on the processing

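The count of genes past the threshold between day 6 and day 3, 4532, was 26 with the 4 libraries alone, 2043 with the 6 wild type libraries, and 2030 to 5299 when 1 of the 4 libraries was left out. With the replicate block it was 3937, and the other alternatives gave 3297 to 4860. Where 1 library of a group was left out, the remaining library is assumed to vary like the other groups. The count for the difference between the knockout and wild type steps, 541, was 174 with the replicate block, 120 with GC and length trends removed, 358 with library weights per group, 829 after quantile normalization, and 31 to 2168 when 1 library was left out. Wild type day 6 had a library weight of 0.394, the lowest of the groups, and knockout day 3 one of 2.56. Of the 149 named genes 124 were past the threshold, and 72 of these stayed past it in every alternative except the 4-library fit, in which 2 did. None of the called changes reversed its sign. The replicate block lost 6 of the 124 calls (Runx1, Tcf15, Notum, Fgf3, Tubb3 and Ina) and 5 of the 14 step differences, and removing GC and length trends lost 2 of the calls (Hand2 and Fn1) and 8 of the 14 step differences. Why the counts move with single libraries was not tested. The alternative without small RNA genes (4640 and 567 genes) and the list counts under each alternative were chosen after seeing the data. Genes under 1 FPKM on both days are not covered, and 14.9 M reads in day 3 replicate 2 limit the low values there.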

Other observations

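In a stretch of chromosome 4 (build GRCm38.p6, chr4:145670697-147702631) that holds Zfp980, Zfp987, Zfp979 and Zfp534, the genes above the minimum were lower at day 6. The stretch was chosen after the values of these 4 zinc finger genes were seen, so it has no test of its own. Of 64 RefSeq genes in it 16 were above the minimum, 10 of them with a Zfp symbol. All 16 fell, with a smallest log2 change of -0.63 and a median of -1.38, where 18.7% of all genes tested fell. The 16 include the 4 genes by which the stretch was chosen, so the count and the median are in part set by that choice. Zfp987 had 37.1 and 11.2 FPKM at day 6, against 81.8 and 88.8 FPKM at day 3 (SE of the log2 change 0.43, limma adjusted p = 0.00961). Zfp979 had 36.0 and 16.4 FPKM at day 6, against 74.5 and 79.2 FPKM at day 3 (log2 change -1.62, SE 0.29, limma adjusted p = 0.0049). Zfp991 had the smallest change, with 3.05 and 2.37 FPKM at day 6, against 4.98 and 4.49 FPKM at day 3. Replicate 2 was the lower day 6 library in each of the genes named here. Zinc finger genes of such clusters resemble one another in sequence, and no source used here says how the authors' counting divided reads between them, so single values are uncertain. Zfp980 did not pass without day 3 replicate 1, and Zfp980, Zfp987 and Zfp534 did not pass without day 3 replicate 2.

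Some other genes with large rises or falls belong to no list. Spink1, a trypsin inhibitor, had 28.1 and 72.1 FPKM at day 6, against 1.87 and 0.815 FPKM at day 3 (log2 change 4.34, SE 0.59, limma adjusted p = 0.00226). Nrp1, a co-receptor for VEGF and semaphorins, had 5.99 and 36.5 FPKM at day 6, against 0.577 and 0.577 FPKM at day 3 (log2 change 3.36, SE 0.64, limma adjusted p = 0.00604). Nrp1 passed the minimum on its day 6 level alone and so had to be higher at day 6. Abcc4, an export pump, fell to 20.8 and 7.34 FPKM at day 6, against 55.4 and 51.2 FPKM at day 3 (log2 change -2.01, SE 0.42, limma adjusted p = 0.00861).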
